A study of Saccharomyces cerevisiae with 36 samples.

Results

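Polysome-associated RNA of fed yeast cells lacking MTR10 was compared with that of fed wild-type cells. The comparison was defined by the sample labels, as the log2 signals of the 2 arrays of mtr10 fed polysome RNA minus those of the 2 arrays of wild-type fed polysome RNA, and so took 4 of the 36 arrays of the series. The wild-type was BY4742, a haploid MATalpha laboratory strain of Saccharomyces cerevisiae, and the other strain was labelled a deletion of mtr10, with the number of independent clones not given in the sources used here. Cultures grew at 30 °C in synthetic defined medium (the sample source labels call it SC) to an OD600 of 0.35, were split and pelleted, and went back for 30 min into prewarmed medium that held amino acids (fed) or lacked them (starved). Every culture, fed ones included, received cycloheximide, which freezes ribosomes on messages, at 100 µg/ml. Lysates made in heparin buffer were spun through gradients of 10% to 50% sucrose, and the polyribosome region was pooled. Fed total RNA of both strains, starved polysome RNA of both strains and fed polysome RNA of a deletion of msn5, each with 2 arrays a group and the same medium, drug and gradients, were set beside it. The labels call the 2 arrays of a group biological replicates, so that a p-value measures the spread between such arrays, and their number limits the precision of every value.

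Mtr10 is an importin of the karyopherin beta family. It carries the shuttling messenger-binding proteins Npl3, Gbp2 and Hrb1 back into the nucleus after they have left it with messages, and it takes part in the return of cytoplasmic tRNA to the nucleus. In yeast, tRNA splicing takes place on the mitochondrial surface, and tRNA moves between nucleus and cytoplasm in both directions, with Los1 and Msn5 among the exporters. Polysome RNA holds the messages that carry several ribosomes, so its level for a gene follows both how much message a cell has and what share of it is being translated. The array signals give each message relative to the other messages of its pool, not per cell.

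The deleted gene was read first. MTR10 measured 10.92 and 10.85 (log2 signal) on the wild-type fed polysome arrays and 4.49 and 4.67 on those of mtr10. It was called Present on both wild-type arrays and on neither mtr10 array, so the fold is a lower bound, at least 63.5-fold lower (limma, adjusted p = 4.47e-18). The labels of these 4 arrays thus match the gene's signal. PNS1, the neighbouring gene on chromosome XV, a choline transporter-like protein, measured 11.12 and 11.10 in wild-type and 8.56 and 8.89 in mtr10, a log2 difference of -2.38 ± 0.21 (SE; adjusted p = 1.39e-08). SME1, the neighbour on the other side and a core protein of spliceosomal particles, measured 10.32 and 10.16 against 10.61 and 10.45, a log2 difference of 0.29 ± 0.16 that did not pass the test (adjusted p = 0.158). Arrays did not overlap between the strains for either neighbour, which was so for 76.7% of all genes.

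MSN5, the exporter gene deleted in the other mutant of the series, was present in mtr10, at 12.14 and 11.93 against 11.31 and 11.19 in wild-type (log2 difference 0.78 ± 0.15, adjusted p = 0.000304). The MATalpha markers were high in both strains. MF(ALPHA)1, the alpha-factor gene, measured 13.25 and 13.24 in wild-type and 13.34 and 13.28 in mtr10, and STE3, the receptor of a-factor, measured 12.17 and 12.24 against 11.52 and 11.79 (log2 difference -0.55 ± 0.10, adjusted p = 0.000103). MET17, a methionine synthesis gene that BY4742 keeps, measured 12.97 and 13.15 against 12.75 and 12.61 (log2 difference -0.38 ± 0.09, adjusted p = 0.00228). HIS3, partly deleted in BY4742, read 12.85 and 12.80 against 12.85 and 12.85 (log2 difference 0.03 ± 0.08, adjusted p = 0.835). Its signal was high in both strains and did not show the partial deletion. GCN4, the activator of amino acid synthesis genes whose message is controlled by upstream reading frames, measured 13.04 and 13.06 against 13.34 and 13.16 and did not pass the test (log2 difference 0.20 ± 0.10, adjusted p = 0.127). CPA1, another message with an upstream frame that acts in arginine synthesis, measured 12.04 and 12.13 against 12.38 and 12.22 (log2 difference 0.21 ± 0.10, adjusted p = 0.0866). The arrays of GCN4 and CPA1 did not overlap between strains, with mtr10 higher, as for 36.9% of all genes; with MAS5 signals GCN4 differed by -0.04.

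Of 5338 genes tested with limma, 1037 (19.4%) were called higher and 1080 (20.2%) lower in mtr10 polysome RNA at a Benjamini-Hochberg adjusted p under 0.05. With each array centred on genes outside chromosome IV in place of the RMA scale, the split was 1376 higher and 768 lower. Without mtr10 array 1 the lower calls numbered 699. The arrays of both strains did not overlap in 4096 genes (76.7%), and in 2115 of the 2117 called genes (39.7% of all). Most called differences were modest: 173 genes (3.24%) were called and at least 2-fold higher, and 128 (2.4%) were called and at least 2-fold lower.

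The feature that set the higher calls apart was their place in the genome. Chromosome IV holds 696 of the 5338 genes and held 46.3% of the higher calls. Of these, 480 (69.0%) were called higher and 11 (1.58%) lower, and their median log2 difference was 0.56, with quartiles of 0.27 and 0.80. Among the 4642 genes of the other 15 chromosomes, 557 were called higher and 1069 lower, with a median of -0.07. The other chromosomes' medians ran from -0.14 to 0.01 and their shares called higher from 9.78% to 19.8%. With MAS5 signals the medians were 0.60 on chromosome IV and -0.11 outside it.

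**Figure D1:**
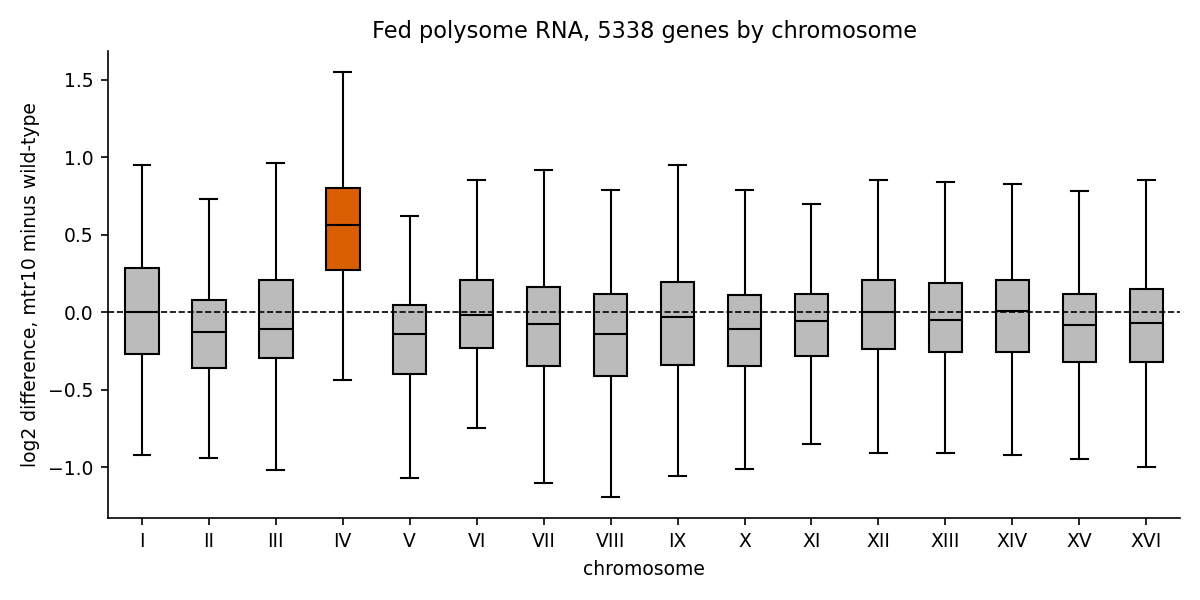
Log2 difference of mtr10 minus wild-type in fed polysome RNA (y axis) for the tested genes of each chromosome (x axis). Boxes span the quartiles with the median as a line, whiskers reach the farthest gene within 1.5 times the box length, and points beyond are not drawn; the box of chromosome IV, with a median of 0.56, lies above those of the other 15 chromosomes.

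The shift ran along the whole chromosome. When its genes were taken in order in 14 consecutive stretches of 49 to 50 genes, the median log2 difference of a stretch lay between 0.40 and 0.68, and the share called higher between 57.1% and 84.0%. The lowest median, 0.40, belonged to the last stretch, from PAC11 to YDR541C, and the highest, 0.68, to the stretch from SAC3 to AHA1. No stretch had the level of the other chromosomes. Among 4 equal classes of its genes by wild-type level, that of the highest levels, 11.63 to 14.19, had a median of 0.32 with 50.6% called higher, and the other classes had medians of 0.66, 0.66 and 0.60 from lowest to highest level.

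The same shift was present on every mtr10 array. For each array, the median of chromosome IV genes minus the median of all other genes was taken, relative to the wild-type mean of the same condition and kind of RNA. It was 0.62 and 0.62 in mtr10 fed polysome RNA and 0.63 and 0.63 in fed total RNA. It lay between 0.62 and 0.75 on all 12 mtr10 arrays and between -0.01 and 0.02 on all 12 arrays of msn5, so the strains did not overlap. The polysome difference of chromosome IV genes thus matched that of their total RNA, with a median polysome minus total difference of -0.01. DNA was not measured, and an extra copy of the chromosome was not tested. Since deletion and chromosome IV level move together on every array, they cannot be told apart for any gene, on that chromosome or elsewhere. The number of members on chromosome IV is given for the gene groups that have called members there.

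**Figure D2:**
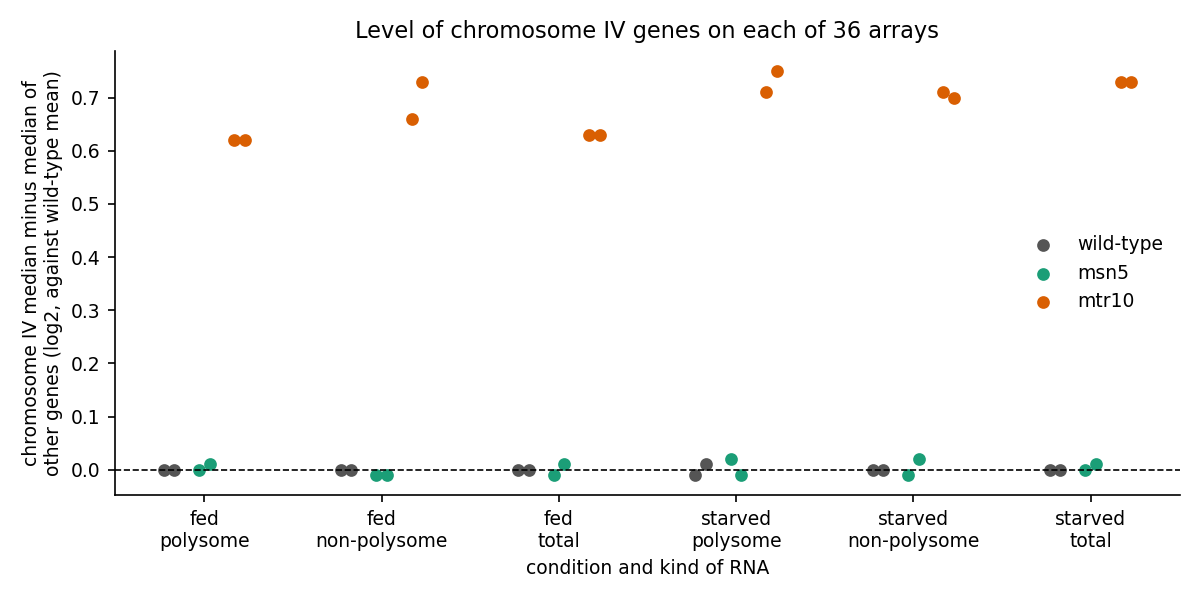
Median of chromosome IV genes minus median of all other genes (y axis, log2, relative to the wild-type mean of the same condition and RNA) on each of the 36 arrays, by condition and kind of RNA (x axis). Each point is 1 array; all 12 mtr10 arrays lie between 0.62 and 0.75 and all msn5 and wild-type arrays between -0.01 and 0.02.

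Of the 11 chromosome IV genes called lower, all were named after their values were seen. The leading ones were PHM6, a phosphate-regulated gene, at 7.01 and 6.95 in wild-type against 4.98 and 5.97 in mtr10 (log2 difference -1.50 ± 0.39, adjusted p = 0.0034), and KNH1, a cell wall glucan gene, at 9.11 and 9.12 against 7.75 and 7.92 (-1.27 ± 0.17, adjusted p = 3.18e-06). HO, the mating type switching endonuclease, EMI2, a glucokinase relative, ADA2, GPD1, PDR15, SOR2, FMN1, ERD1 and FDC1 made up the rest, with log2 differences from -0.99 to -0.32. GPD1, the glycerol-3-phosphate dehydrogenase of osmotic adaptation, measured 12.56 and 12.39 against 11.46 and 11.69 (-0.90 ± 0.13, adjusted p = 1.21e-05). All 4 of its arrays placed mtr10 below wild-type, against the direction of the chromosome.

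The genes with the largest rise were led by a-factor and mating genes. AGA2, the adhesion subunit of a-agglutinin, measured 6.21 and 6.36 in wild-type and 9.88 and 10.04 in mtr10, a 12.7-fold difference (log2 3.67 ± 0.31, adjusted p = 7.77e-09). MFA1, an a-factor gene on chromosome IV, measured 8.19 and 8.40 against 11.67 and 11.78; it was called Present on neither wild-type array, and was at least 10.8-fold higher (adjusted p = 6.3e-10). MFA2, the other a-factor gene, on chromosome XIV, measured 7.26 and 7.31 against 10.33 and 10.51 (log2 3.14 ± 0.33, adjusted p = 1.44e-07). In all 3 the strains were separated by far more than the gap between the arrays of a strain.

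Transport and amino acid breakdown genes were also among the 15 largest rises. STL1, a glycerol symporter on chromosome IV, measured 6.09 and 5.66 against 9.01 and 9.37, and was Present on 1 of the wild-type arrays (log2 3.31 ± 0.20, adjusted p = 4.68e-11). ARO10, a decarboxylase of the Ehrlich pathway on chromosome IV, measured 7.50 and 8.07 against 11.02 and 10.42 (log2 2.93 ± 0.37, adjusted p = 2.06e-06). ARO9, the aromatic aminotransferase that feeds it, on chromosome VIII, measured 7.81 and 8.37 against 10.87 and 10.58 (log2 2.64 ± 0.30, adjusted p = 4.03e-07). Both genes are known targets of the activator Aro80, whose own gene, ARO80, lies on chromosome IV and measured 10.29 and 10.09 in mtr10, above both wild-type arrays (log2 1.15 ± 0.11, adjusted p = 5.25e-08).

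The rest of the 15 largest rises were YDL114W and PHO92 on chromosome IV and SPG4, ANS1, SPR3, ECM8, CDA1, SRT1 and GSC2 elsewhere, with log2 differences from 3.06 for YDL114W to 2.15 for GSC2. SPR3, a septin of sporulation, measured 5.85 and 5.54 against 8.20 and 8.13, and CDA1, a chitin deacetylase of the spore wall, 5.16 and 6.34 against 7.61 and 8.39. GSC2, a subunit of glucan synthase, measured 10.39 and 10.59 against 12.62 and 12.68. In all 15 genes both mtr10 arrays lay above both wild-type arrays, which the rule for naming them required. Of the 15, 5 lie on chromosome IV. All 15 were also called higher in fed total RNA, and 9 of the 15 in starved polysome RNA.

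The next largest falls after MTR10 were those of QDR2 and FCY21. QDR2, a plasma membrane multidrug transporter, measured 10.90 and 11.20 in wild-type and 7.18 and 7.05 in mtr10, 15.3-fold lower (log2 -3.93 ± 0.23, adjusted p = 3.45e-11). FCY21, a purine-cytosine permease relative, measured 9.66 and 9.70 against 6.76 and 6.64 (-2.98 ± 0.17, adjusted p = 3.45e-11). Its relative FCY22 measured 8.08 and 8.18 against 6.55 and 6.82 (-1.45 ± 0.19, adjusted p = 2.88e-06), whereas FCY2, the main permease of this family, measured 12.48 and 12.74 against 12.73 and 12.80 and did not pass the test (0.16 ± 0.11, adjusted p = 0.277). Probes of such near relatives can share signal, which limits how far the members can be told apart. FRE5, a putative ferric reductase, fell from 6.93 and 7.94 to 4.77 and 4.64, where neither mtr10 array called it Present, and was at least 5.79-fold lower (adjusted p = 0.000147).

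BDH2, a butanediol dehydrogenase relative, measured 10.83 and 10.46 against 7.96 and 8.05 (-2.64 ± 0.22, adjusted p = 8.46e-09). FIT3, a cell wall protein that helps retain siderophore iron, measured 12.66 and 13.19 in wild-type, and both mtr10 arrays lay below these, with a mean of 10.87 (-2.05 ± 0.28, adjusted p = 5.74e-06). The others of the 15 largest falls were YHR140W, GTO3, a glutathione transferase, RGS2, a regulator of glucose-induced signalling, YER053C-A, SDP1, a phosphatase of the cell wall kinase, HOP1, a meiotic chromosome protein, RSB1, a sphingoid base transporter, and YPC1, a ceramidase, with log2 differences between -2.50 and -1.90. None of the 15 lies on chromosome IV. All 15 were also called lower in fed total RNA and in starved polysome RNA of mtr10.

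**Figure D3:**
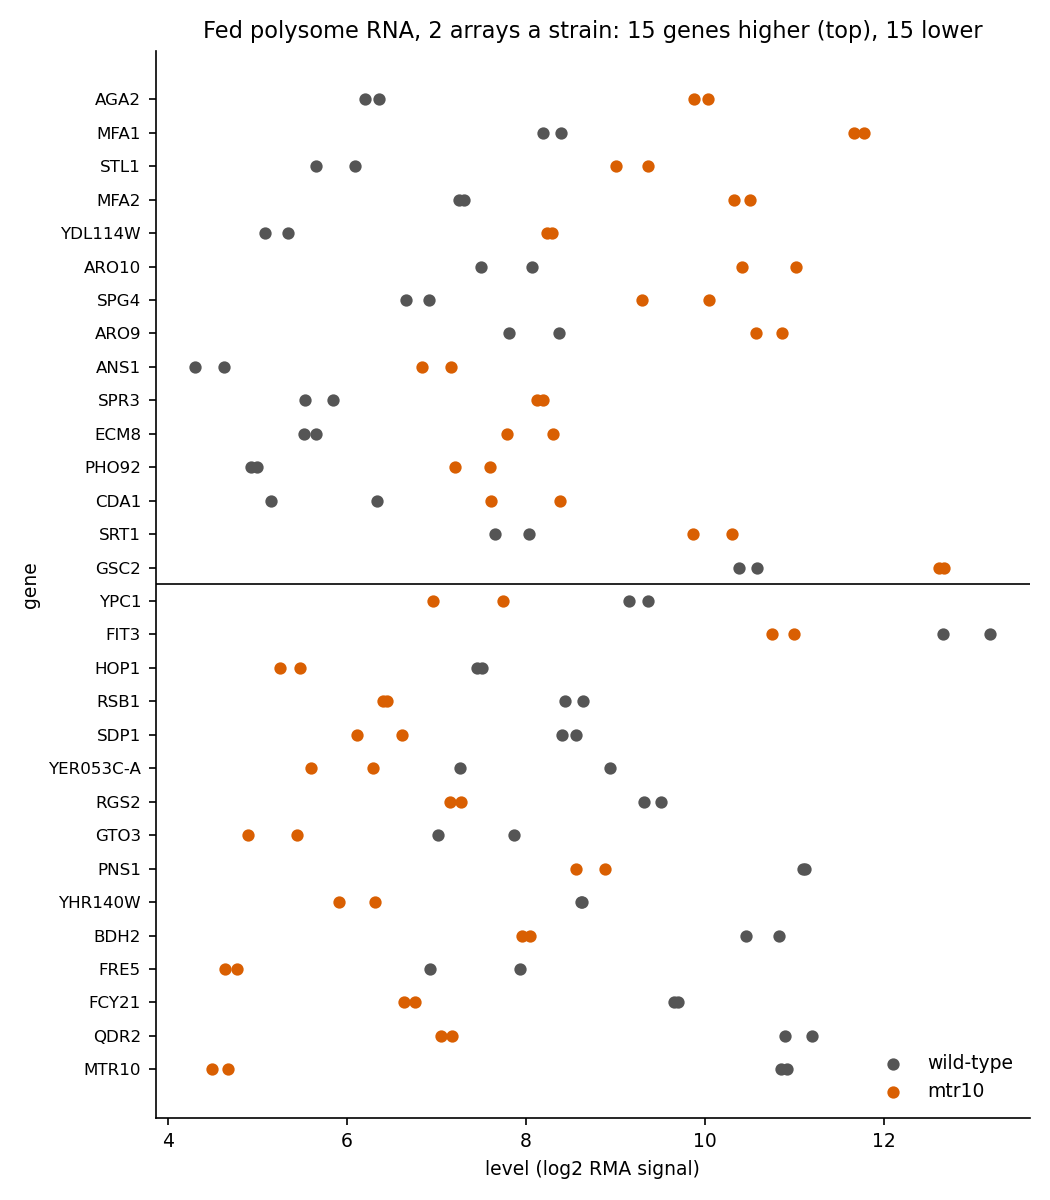
Log2 RMA signal (x axis) of the 15 genes with the largest rise and the 15 with the largest fall in mtr10 fed polysome RNA (y axis), each of 2 wild-type and 2 mtr10 arrays drawn as a point. The points of the strains do not overlap for any of the 30 genes, which the rule for naming them required.

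Genes of nuclear transport and of the messages' own handling came next in the order of roles. Of 15 karyopherin genes, 4 (26.7%) were called higher and 1 (6.67%), MTR10, lower, beside 19.4% and 20.2% of all genes. Among the 13 outside chromosome IV, 2 were higher and 1 lower, beside 557 and 1069 of the 4642 genes there. CRM1, the main exporter of proteins with leucine-rich signals, on chromosome VII, measured 10.89 and 10.96 against 11.68 and 11.48 (0.65 ± 0.13, adjusted p = 0.00046). SXM1 and MSN5, both on chromosome IV, and KAP104, an importin of messenger-binding proteins (0.27 ± 0.10, adjusted p = 0.0333), were the other 3. LOS1, the tRNA exporter, measured 10.66 and 10.58 against 10.76 and 10.67 and was not called (0.10 ± 0.16, adjusted p = 0.672). Leaving out single arrays moved the list's median, 0.13, between 0.06 and 0.25.

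The cargo proteins of Mtr10 split by chromosome. NPL3, on chromosome IV, measured 13.28 and 13.42 against 14.24 and 14.19, 1.82-fold higher (0.86 ± 0.20, adjusted p = 0.00171). GBP2 measured 12.69 and 12.48 against 12.65 and 12.54 (0.01 ± 0.11, adjusted p = 0.962). HRB1 (0.03 ± 0.14) and SKY1, the kinase that acts on these proteins (0.03 ± 0.16), likewise had overlapping or nearly equal arrays and were not called. Among 18 mRNA export genes, all 6 on chromosome IV were called higher, beside 69.0% of all genes of that chromosome. They were led by SAC3, a scaffold of the nuclear pore's export complex (0.84 ± 0.12, adjusted p = 9.79e-06), and GLE1, an activator of the export helicase (0.60 ± 0.07, adjusted p = 8.71e-07). Of the 12 elsewhere, GFD1 was called higher and YRA2, TEX1, THP2 and SUS1 lower, the last of these, a small subunit of the same complex, by the most (log2 difference -0.85). Of 38 nuclear pore genes, 7 (18.4%) were higher, 3 of them on chromosome IV, and 2 (5.26%) lower, so the higher share was near that of all genes.

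Of 38 genes of tRNA processing, transport and modification, 4 were called higher and 4 lower, beside 19.4% and 20.2% of all genes. SEN54, a subunit of the tRNA splicing endonuclease, measured 10.01 and 9.88 against 9.11 and 9.10 (-0.84 ± 0.13, adjusted p = 1.81e-05). The other endonuclease subunits, SEN2 (-0.09), SEN15 (-0.16) and SEN34 (-0.09), were not called, nor was the tRNA ligase TRL1 (-0.04). TYW3, which acts in wybutosine formation, measured 10.94 and 10.71 against 10.02 and 9.95 (-0.84 ± 0.11, adjusted p = 4.76e-06), and TRZ1, the nuclease of tRNA 3′ ends, 10.41 and 10.47 against 9.85 and 9.77 (-0.63 ± 0.14, adjusted p = 0.00126). THG1, which adds a guanosine to histidine tRNA, was the fourth lower gene (-0.48 ± 0.12, adjusted p = 0.00289). The higher genes were MAF1, the repressor of RNA polymerase III, and TRM1, a tRNA methyltransferase, both on chromosome IV, with CCA1 and TAD1 at log2 differences of 0.32 and 0.40. Levels of tRNA itself were not measured.

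Translation genes moved little. Of 19 cytosolic tRNA synthetases 3 were called higher (KRS1 and SES1 on chromosome IV, and TYS1) and 2 lower (WRS1 and FRS2), all by less than 0.4 in size, and none of these 5 calls held without each of the 4 arrays in turn. Of 40 translation factors 3 were higher, all on chromosome IV: GCD6, the catalytic subunit of the exchange factor eIF2B (0.78 ± 0.13, adjusted p = 3.48e-05), SUP35, a termination factor (0.50 ± 0.10, adjusted p = 0.000531), and EFT2, an elongation factor gene (0.28 ± 0.06, adjusted p = 0.00125). The 3 lower ones, SUI3, GCN3 and HCR1, changed by 0.33 or less in size. Among 74 genes of the large ribosomal subunit 0 were higher and 3 lower, and among 53 of the small subunit 0 and 3. RPS14B, a minor copy of its pair whose near-identical partner can share probe signal, measured 12.78 and 13.02 against 11.25 and 11.35 (-1.60 ± 0.26, adjusted p = 3.7e-05). None of the 16 ribosomal protein genes on chromosome IV was called higher, beside 69.0% of all that chromosome's genes. The share fell with level, to 50.6% with a median of 0.32 among its genes of the highest wild-type levels, 11.63 to 14.19. The ribosomal protein genes were not compared with genes of matched level.

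Ribosome assembly genes, 111 in number, had 10 higher and 0 lower calls with a median of 0.14, beside -0.02 for all genes. Of the 10, 8 lie among the 14 members on chromosome IV, such as DBP10, a helicase of the large subunit (11.46 and 11.40 against 12.70 and 12.57; 1.21 ± 0.15, adjusted p = 2.03e-06). The other 2, DBP6 and SPB1, were the called members among 97 elsewhere. With centring outside chromosome IV, 17 of the 111 were called higher and the median was 0.24. Without mtr10 array 1, 5 were called higher.

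Genes specific to MATa cells, silent in MATalpha cells by textbook, were the most uniform group. All 7 were called higher, with a median log2 difference of 1.73, and 6 of the 7 lie outside chromosome IV. STE2, the alpha-factor receptor, measured 8.24 and 8.30 against 9.69 and 9.96 (1.55 ± 0.27, adjusted p = 9.85e-05), and BAR1, the protease that destroys alpha-factor, 7.70 and 7.50 against 9.21 and 9.46 (1.73 ± 0.23, adjusted p = 4.52e-06). ASG7 (1.51 ± 0.20) and STE6, the a-factor exporter (1.00 ± 0.18), completed the group with AGA2, MFA1 and MFA2. The mean log2 level over the 7 genes was 7.51 and 7.51 in wild-type and 9.73 and 9.88 in mtr10, and that over the 4 measured MATalpha genes 12.94 and 12.99 against 12.95 and 13.04. In bulk RNA, a change in the number of cells that express such genes and a change in RNA per cell cannot be told apart. On starvation the same mean rose in wild-type polysome RNA to 12.02 and 11.91, and mtr10 stood at 10.13 and 10.85. Fed mtr10 cells thus lay between the fed and starved wild-type levels of these genes.

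Of 23 pheromone response genes, none on chromosome IV, 7 (30.4%) were higher and 2 (8.7%) lower, beside 19.4% and 20.2% of all genes. Of the 4642 genes outside chromosome IV, 557 were higher and 1069 lower. FIG2, a cell wall adhesin of mating, measured 10.19 and 10.10 against 11.11 and 11.09 (0.96 ± 0.23, adjusted p = 0.00218), and PRM5, a pheromone-regulated membrane protein, 10.91 and 11.06 against 11.64 and 11.85 (0.76 ± 0.11, adjusted p = 1.54e-05). STE4, the beta subunit of the pathway's G protein, fell from 11.95 and 11.90 to 11.36 and 11.21 (-0.64 ± 0.10, adjusted p = 1.67e-05), and MSG5, the phosphatase that dampens the pathway's kinase, fell by a similar amount (-0.60 ± 0.11, adjusted p = 0.000107). The other 14 members were not called.

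Nitrogen catabolite genes, which cells use to take up and break down poor nitrogen sources, were higher wherever called. Of 32, 17 (53.1%) were higher and 0 lower, beside 19.4% and 20.2% of all genes. The median was 0.50 (0.43 for the 29 outside chromosome IV). DAL80, a repressor of this regulon, was Present on neither wild-type array, at 5.96 and 5.68, and measured 7.77 and 7.86 in mtr10, at least 3.99-fold higher (adjusted p = 5.34e-06). DUR3, the urea transporter, measured 9.16 and 9.22 against 10.66 and 10.44 (1.36 ± 0.10, adjusted p = 1.29e-09), and PUT1, the proline oxidase, 9.35 and 9.41 against 10.48 and 10.79 (1.25 ± 0.13, adjusted p = 1.1e-07). GDH2, a glutamate dehydrogenase on chromosome IV, measured 10.92 and 10.97 against 12.13 and 11.98 (1.11 ± 0.10, adjusted p = 3.82e-08). The regulators GLN3 (-0.27), GAT1 (-0.29) and GZF3 (-0.20) were not called. Against fed polysome RNA of msn5 the same list had 11 higher and 7 lower with a median of 0.07; msn5 against wild-type, which shares the wild-type arrays, had 10 higher and 1 lower with a median of 0.35, beside 5.47% and 3.69% of all genes.

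Amino acid synthesis did not move as one. The shares of all genes to set beside these short lists were 19.4% higher and 20.2% lower. In lysine synthesis 6 of 8 genes were higher and 2 lower. All 4 members on chromosome IV were higher (median 0.93), and of the 4 elsewhere 2 were higher and 2 lower (median 0.21): LYS20, a homocitrate synthase on chromosome IV, measured 11.77 and 11.69 against 13.32 and 13.13 (1.50 ± 0.22, adjusted p = 9.21e-06), LYS9 and LYS1 on other chromosomes rose by 0.83 and 0.79 on the log2 scale, and LYS5 and LYS12 fell by 0.58 and 0.38. In histidine synthesis HIS4, HIS5 and HIS7 were higher and HIS6 lower of 7, with HIS4, a multifunctional enzyme, at a higher level on both mtr10 arrays (1.11 ± 0.12, adjusted p = 2.27e-07). In arginine synthesis ARG1 and ARG4 were higher and ARG7 lower of 8, with ARG1 at 12.10 and 11.83 against 13.30 and 12.89 (1.13 ± 0.17, adjusted p = 1.51e-05). In branched-chain synthesis the direction was the other way, with 5 of 12 lower and 1 higher. OAC1, a mitochondrial carrier that serves leucine synthesis, fell from 13.11 and 13.10 to 12.53 and 12.04 (-0.82 ± 0.14, adjusted p = 4.68e-05), and ILV5, an enzyme of the pathway, by 0.39 on the log2 scale.

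Purine and pyrimidine synthesis also parted. Of 14 purine genes 8 (57.1%) were higher and 1 (7.14%) lower, beside 19.4% and 20.2% of all genes. Only 1 of the 14 lies on chromosome IV. ADE17, of the last steps of the pathway, measured 12.43 and 12.27 against 13.37 and 13.36 (1.01 ± 0.12, adjusted p = 4.52e-07), ADE4, of the first step, 11.11 and 10.98 against 12.07 and 11.93 (0.95 ± 0.11, adjusted p = 1.02e-06), and ADE2 12.05 and 12.03 against 12.99 and 12.91 (0.91 ± 0.09, adjusted p = 1.3e-07). The lower gene was IMD2, of guanine nucleotide synthesis (-0.57 ± 0.18, adjusted p = 0.0155). Of 9 pyrimidine genes 0 were higher and 4 (44.4%) lower, URA4 by -0.77 ± 0.18 (adjusted p = 0.00131) and URA6 by -0.68 ± 0.12 (adjusted p = 0.000147). In the Ehrlich pathway 7 of 13 were higher, 4 of them on chromosome IV, and 0 lower.

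Iron uptake genes fell. Of 32, 16 (50.0%) were called lower and 2 (6.25%) higher, beside 20.2% and 19.4% of all genes, with a median of -0.46. Of the 29 outside chromosome IV 16 were lower and 1 higher. FTR1, the high-affinity iron permease, measured 12.01 and 12.49 against 11.16 and 11.12 (-1.11 ± 0.22, adjusted p = 0.000309), and its partner oxidase FET3 12.83 and 13.03 against 12.42 and 12.40 (-0.52 ± 0.17, adjusted p = 0.0199). ENB1, a siderophore transporter, measured 11.02 and 11.38 against 10.02 and 9.73 (-1.32 ± 0.19, adjusted p = 9.62e-06), and TIS11, which destabilises messages of iron-using proteins, 10.96 and 11.50 against 9.79 and 9.40 (-1.63 ± 0.46, adjusted p = 0.00712). The wild-type arrays differed in this group: array 2 exceeded array 1 by a median of 0.28, beside -0.03 for all genes, and both lay above both mtr10 arrays in the genes named. The 2 higher members were CTH1, a relative of TIS11 on chromosome IV (0.81 ± 0.12), and BIO5, a biotin precursor transporter (1.04 ± 0.21). Neither takes up iron itself, although the list held them. The activator gene AFT1 was not called (-0.17 ± 0.17), and AFT2 fell (-0.47 ± 0.10, adjusted p = 0.000636).

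Mitochondrial ribosomal protein genes were the largest group to fall. Of 72, 41 were called lower, 56.9% beside 20.2% of all genes, and 8 higher, with a median of -0.43. The chromosomes divided them: of 13 on chromosome IV 8 were higher and 0 lower, and of 59 elsewhere 0 were higher and 41 lower. RSM26 measured 11.48 and 11.48 against 10.45 and 10.58 (-0.96 ± 0.10, adjusted p = 1.27e-07), and MRPS9 11.91 and 11.82 against 10.94 and 11.02 (-0.89 ± 0.10, adjusted p = 2.21e-07). MRPL17 (-0.69 ± 0.08) and MRPS5 (-0.77 ± 0.10) had the next smallest p, and MRPL39 and MRPL49 fell by the most on the log2 scale (-1.02 and -1.01). In fed total RNA 21 of the 72 were lower and the median was -0.17. Without mtr10 array 1, 26 were called lower in polysome RNA, and the 8 higher calls fell to between 3 and 5 when any 1 array was left out and to 3 with MAS5 signals.

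Glucose and stress genes were mixed. Lower calls took 26.3% of the glycolytic, 24.1% of the stress and 28.6% of the glycerol list, beside 20.2% of all genes. Higher calls took 41.7% of the hexose transporter, 11.1% of the stress and 14.3% of the glycerol list, beside 19.4% of all genes. Of 19 glycolytic genes 5 were lower, none of them on chromosome IV, and 0 higher: ENO1, an enolase, measured 13.54 and 13.58 against 12.46 and 12.32 (-1.17 ± 0.16, adjusted p = 6.46e-06), and TDH1, a glyceraldehyde phosphate dehydrogenase, 12.83 and 12.88 against 11.65 and 11.79 (-1.13 ± 0.15, adjusted p = 4.33e-06), both being members of close gene families. Of 12 hexose transporter genes 5 were higher, 2 of them (the glucose sensor genes SNF3 and RGT2) on chromosome IV, and HXT1, the low-affinity transporter, was lower (log2 difference -0.81). Of 54 general stress genes 13 were lower and 6 higher, 1 and 3 of these among the 5 on chromosome IV, with SPI1, a cell wall protein, at 12.45 and 12.45 against 11.30 and 11.29 (-1.16 ± 0.17, adjusted p = 9.75e-06) and GRE1 at 8.06 and 8.37 against 9.34 and 9.81 (1.36 ± 0.22, adjusted p = 3.15e-05). Of 14 glycerol genes 2 were higher and 4 lower, with STL1 (higher) and GPD1 (lower) on chromosome IV. GPP2, a glycerol phosphatase, fell by the most of them, from 12.35 and 12.18 to 10.34 and 10.56 (-1.81 ± 0.12, adjusted p = 4.88e-10).

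**Figure D4:**
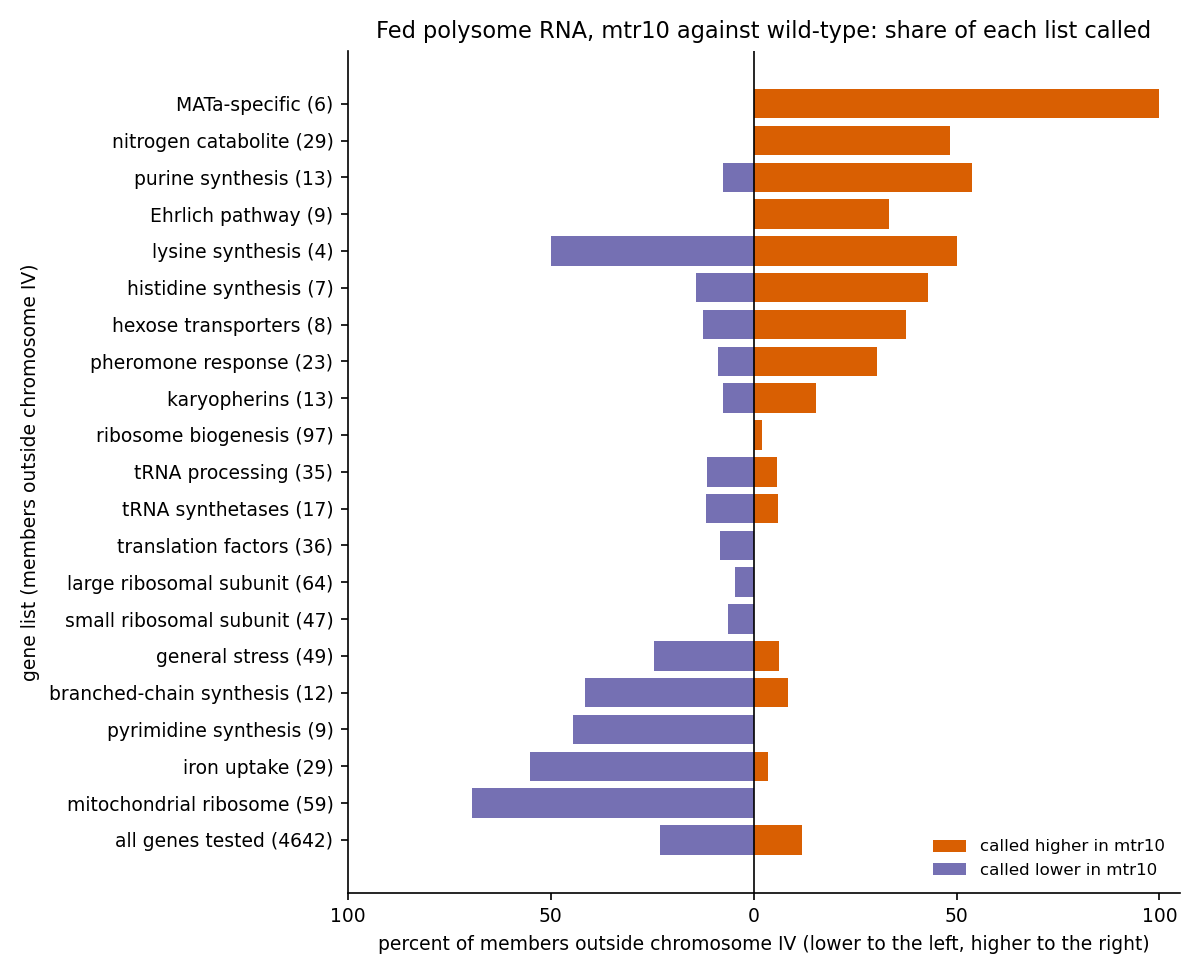
Percent of the members of each gene list outside chromosome IV that were called higher (to the right) or lower (to the left) in mtr10 fed polysome RNA, with the number of such members in brackets (y axis). The bars for all 4642 genes outside chromosome IV, 557 of them higher and 1069 lower, are the background; MATa-specific genes lie wholly to the right, and 41 of 59 mitochondrial ribosomal protein genes to the left.

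Polysome RNA follows message level as well as translation, so the difference was set against that in total RNA of the same strains. In fed total RNA 1003 genes (18.8%) were higher and 1104 (20.7%) lower in mtr10, 39.5% of all. Across all 5338 genes the polysome and total differences correlated with r = 0.88, and across the 4642 outside chromosome IV with r = 0.85; the values are across genes, which are not independent replicates, and the fractions may come from the same cultures. In the direct test of polysome minus total difference, limma called 0 genes in either direction (0.0%), while 468 had an unadjusted p under 0.05. The standard error of this contrast was larger, with a median of 0.19 beside 0.13 for the polysome difference alone. Array weights, which came out equal within each group and so differed only between groups, called 64 genes higher and 44 lower. A block of same-numbered arrays within each strain, added after seeing the data, called 581 higher (10.9%) and 501 lower (9.39%). The count of 0 thus depended on the fit, which took the fractions as unpaired, and the labels do not say whether same-numbered fractions share a culture. Deviations of same-numbered polysome and total arrays correlated with r = 0.48 in fed wild-type and 0.64 in fed mtr10. For 94.6% of genes the polysome minus total difference lay within 0.5 of 0, and for 10 genes it reached 1 in size.

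The median polysome minus total difference followed gene length. Genes were divided into eighths by coding length. In the shortest eighth, 78 to 534 bases, mtr10 minus wild-type had a median of -0.25, and in the longest, 2613 to 14733 bases, of 0.29, with the eighths between at -0.14, -0.07, -0.02, 0.03, 0.09 and 0.16. On single arrays, the median of polysome minus mean total RNA in the shortest eighth was 0.13 and 0.09 in wild-type, 0.03 and 0.07 in msn5 and -0.16 and -0.12 in mtr10. In the longest eighth it was -0.11 and -0.14 in wild-type, -0.08 and -0.09 in msn5 and 0.19 and 0.13 in mtr10. Both mtr10 arrays lay outside the range of the other 4 at both ends. The difference came from both pools, since across the same eighths the polysome medians ran from -0.09 to 0.12 and the total RNA medians from 0.11 to -0.15. Its source was not tested.

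**Figure D5:**
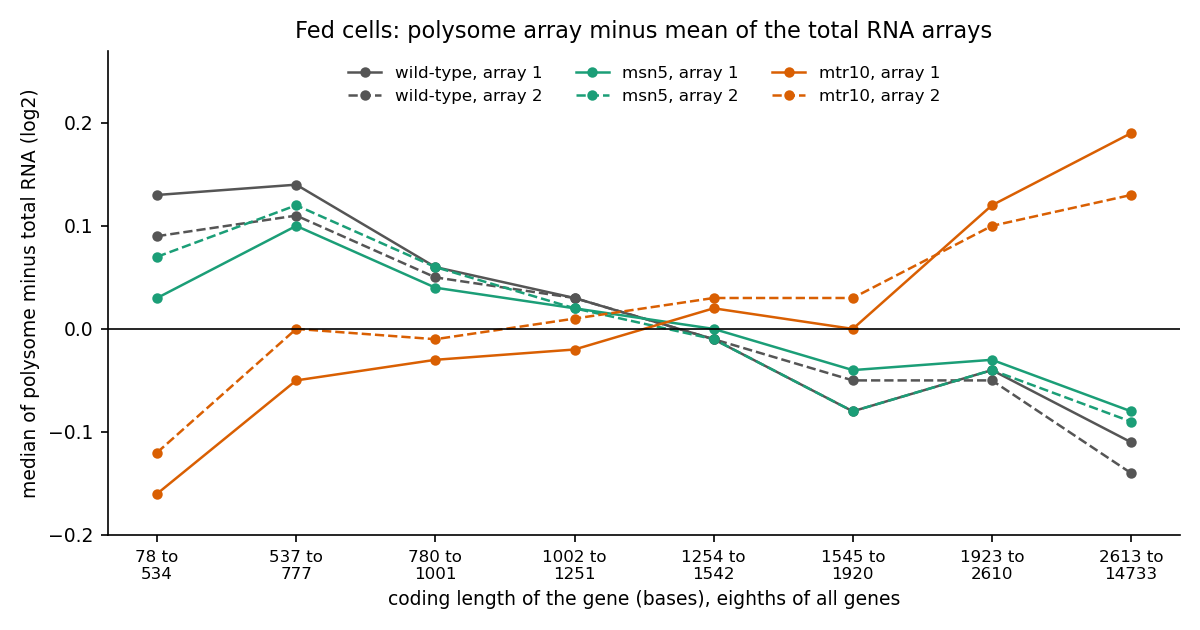
Median of polysome signal minus the mean of the total RNA arrays of the same strain (y axis, log2) for genes in eighths of coding length (x axis, bases), drawn for each of 2 fed polysome arrays of wild-type, msn5 and mtr10. In the longest eighth the wild-type and msn5 arrays lie between -0.08 and -0.14 and the mtr10 arrays at 0.19 and 0.13, and in the shortest eighth the order is turned.

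Gene lists were set beside these medians. Mitochondrial ribosomal protein genes, with a median coding length of 715 bases, had a median polysome minus total difference of -0.22, and karyopherin genes, with 3099 bases, one of 0.32. CRM1, for example, differed by 0.65 in polysome RNA and by 0.19 in total RNA. MATa-specific genes, with 630 bases, had 0.13, and histone genes, with 402 bases, 0.00, so short lists did not all follow the eighths. A difference between the mitochondrial list and other short genes was not tested. In fed non-polysome RNA MTR10 read 5.48 and 5.17 on the mtr10 arrays, above its polysome values. There mtr10 and wild-type differed in 1179 higher (22.1%) and 1426 lower (26.7%) genes. The contrast of polysome minus non-polysome difference called 226 genes higher (4.23%) and 217 lower (4.07%). It carries a limit, since earlier results of these data had set the fed non-polysome arrays of mtr10 apart. The mean log2 level of the MATa-specific genes was 10.62 and 10.08 on those arrays, beside 9.73 and 9.88 in mtr10 fed polysome RNA. For that reason total RNA was taken for the main contrast.

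Starved polysome RNA asked whether the difference depends on amino acids. There mtr10 differed from starved wild-type in 1359 higher (25.5%) and 1451 lower (27.2%) genes. The starved minus fed difference, tested directly, called 365 genes (6.84%) higher and 510 (9.55%) lower. Leaving out any 1 of the 8 arrays gave between 204 and 267 higher and between 339 and 437 lower. The median of chromosome IV genes in this contrast was 0.09, with 75 higher and 47 lower.

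The MATa-specific genes were all lower in the starved minus fed contrast, 7 of 7, with a median of -3.80. In starved polysome RNA itself 6 of the 7 were called lower in mtr10, and MFA1 was not (-0.37, adjusted p = 0.205). MFA2 stood at 12.81 and 12.76 in starved wild-type and at 10.29 and 11.65 in starved mtr10, so that its mtr10 difference moved by -4.96 ± 0.46 (adjusted p = 1.88e-07). ASG7 stood at 10.81 and 10.65 against 7.78 and 8.16, a move of -4.27 ± 0.28 (adjusted p = 1.98e-09). In both conditions the arrays of the strains were apart for these genes, with mtr10 above wild-type when fed and below it when starved. Of the 15 genes with the largest rise in fed cells, 14 were lower in this contrast, and of the 15 with the largest fall 2 were called. The fed arrays enter both comparisons, which are therefore not independent.

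Chaperone and proteasome genes moved the other way. Of 33 chaperone genes 19 were higher and 0 lower in starved minus fed. SSA2, a major Hsp70 gene, measured 13.76 and 13.83 against 13.87 and 13.79 in fed cells and 11.47 and 11.90 against 13.34 and 13.35 in starved cells, a difference of 1.62 ± 0.24 (adjusted p = 8.66e-05). SSA1, its close relative, gave 1.85 ± 0.26 (adjusted p = 4.9e-05). Both starved mtr10 arrays lay near the fed level and both starved wild-type arrays below it. Of 35 proteasome genes 14 were higher and 0 lower, and 15 of 72 mitochondrial ribosomal protein genes and 12 of 30 genes of the G1/S transition were higher, with 0 lower in each of these lists. HO measured 8.90 and 8.63 in starved wild-type against 9.66 and 9.87 in starved mtr10 (1.99 ± 0.34, adjusted p = 0.000308), and FMP48 (1.64 ± 0.38) and MCM10, a replication factor (1.46 ± 0.36), completed the 5 largest moves upward.

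To see how the fed mtr10 difference relates to a starvation response, it was set beside that of msn5 polysome RNA, which shares no array with it. In msn5, 1828 genes (34.2%) were raised and 1740 (32.6%) lowered on starvation, 66.8% of all. Of the 557 genes higher in mtr10 outside chromosome IV, 334 (60.0%) were raised on starvation in msn5 and 70 (12.6%) lowered, beside 34.1% and 32.7% of all genes outside chromosome IV. Of the 1069 lower genes, 299 were raised and 368 (34.4%) lowered. The 334 made up 21.1% of the genes raised on starvation. More of the higher genes were thus raised than lowered on starvation in the other mutant, and fewer of the lower genes were raised than of all genes; neither difference was tested.

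Against wild-type, msn5 had 292 genes higher (5.47%) and 197 lower (3.69%) in fed polysome RNA. Last, mtr10 was compared directly with msn5 in fed polysome RNA, which leaves out the wild-type arrays. Here 1176 genes (22%) were higher and 1159 (21.7%) lower in mtr10. Of the chromosome IV genes 485 were higher and 14 lower, with a median of 0.60. All 15 of the largest rises and all 15 of the largest falls against wild-type were called in the same direction, although both comparisons use the same mtr10 arrays. QDR2 measured 10.99 and 10.41 in msn5, near its wild-type levels, and differed by -3.58 ± 0.23 (adjusted p = 5.35e-11), and AGA2 measured 5.94 and 6.13 (difference 3.92 ± 0.31, adjusted p = 1.77e-09). The MATa-specific genes (7 of 7 higher, median 1.67), iron uptake genes (20 of 32 lower, median -0.63) and mitochondrial ribosomal protein genes (42 of 72 lower, median -0.42) moved as against wild-type.

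Some genes parted the mutants because of the msn5 arrays. PHO84, the phosphate transporter, measured 13.58 and 13.69 in msn5, 7.27 and 7.85 in mtr10 and 6.59 and 6.92 in wild-type (mtr10 minus msn5 -6.08 ± 0.54, adjusted p = 1e-08). SPL2, a regulator of phosphate transport, likewise differed by -5.81 ± 0.25 (adjusted p = 8.31e-14). FIG1, a membrane protein of mating, measured 4.62 and 4.42 in msn5 against 8.45 and 8.72 in mtr10 and 7.92 and 8.16 in wild-type (4.06 ± 0.22, adjusted p = 5.59e-12). For these 3 genes mtr10 stood near wild-type and msn5 apart from both. MSN5 itself read 4.75 and 4.67 on the msn5 arrays, and YDL114W and ARO10 were the other large rises against msn5.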

How the data were processed

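Polysome-associated, non-polysome and total RNA of 3 yeast strains, fed and starved, was measured on 36 Affymetrix arrays in 18 groups of 2. The authors deposited log2 values made by RMA with affy, per the submitters' processing notes, which give no versions. RMA gives every array the same distribution, so differences are relative to the pool. The authors also deposited a matrix of linear MAS5 intensity, with detection p-values taken at 0.05 for Present calls; 2 of its 36 columns matched another group than they name and were left out. Of 5684 probe sets 5379 had 1 gene, and 39 genes with several were represented by their brightest on average, leaving 5338 genes, of which 5293 were Present on all 4 compared arrays. A filter on dim genes removed 0.

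Group means were fitted over all 36 arrays with limma 3.58.1 in R 4.3.3 (18 residual, 3.92 prior degrees of freedom, two-sided tests), with Benjamini-Hochberg adjustment over all genes and calls at 0.05; SE is that of the fit. The fit was checked on simulated data with independent noise on each array. Planted log2 changes of 0.5 were recovered in 58.2% of genes for the polysome difference and in 31.3% for polysome minus total. Planted changes of 1 were recovered in 86.6% for both. Bounds of the "at least" folds use, per array of the dim group, the higher of the gene's own signal and the lowest Present signal. The 15 largest changes in each direction were taken among 1199 called genes whose arrays did not overlap and whose call held without each of the 4 arrays, with up to 4 members of smallest p per list and the 5 largest of the starved minus fed and mtr10 minus msn5 contrasts; no gene met the rule in polysome minus total. The comparison, gene lists (textbook knowledge) and rules were chosen with earlier results of these data known. Chromosomes, start positions and coding lengths (97.0% multiples of 3) come from RefSeq by locus tag (5338 matched). The start positions served to order the genes of chromosome IV. Alternatives were MAS5 signals, other filters, array weights, smaller fits, a replicate block and single arrays left out.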

Additional observations from a re-analysis of the deposited data

Results flagged for a closer look

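The mtr10 difference depended on the condition, by a direct test of starved minus fed polysome RNA in limma, in 365 genes higher and 510 lower. Of the genes named by the rule, the moves were 1.99 for HO, 1.85 for SSA1, 1.64 for FMP48, 1.62 for SSA2 and 1.46 for MCM10 upward on the log2 scale. Downward they were -4.96 for MFA2, -4.60 for AGA2, -4.27 for ASG7, -3.80 for MFA1 and -3.60 for BAR1. For the 5 downward genes both starved mtr10 arrays lay below both starved wild-type arrays and both fed mtr10 arrays above both fed wild-type arrays; for MFA1 the starved difference was not called (-0.37, adjusted p = 0.205). Groups of 2 arrays were not examined for single outlying arrays.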

How the results depend on the processing

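The 2117 calls of mtr10 against wild-type (1037 higher, 1080 lower) were within 1.5 times under most settings tried. Leaving out single arrays gave 1478 to 1793 calls, 759 to 849 higher and 699 to 944 lower. With chromosome IV left out, chosen after seeing the data, 530 were higher. For polysome minus total difference the count of 0 became 108 (64 higher, 44 lower) with array weights and 0 to 2 without single arrays (0 to 1 in each direction). For starved minus fed the 365 higher calls became 222 with MAS5 signals and 603 with array weights, and leaving out single arrays gave 558 to 704 calls, 204 to 267 higher and 339 to 437 lower. For mtr10 against msn5 (2335 calls) leaving out single arrays gave 1657 to 2041, 848 to 995 higher and 809 to 1046 lower, and with chromosome IV left out 670 were higher. The cause of these changes was not tested, except that fewer arrays or genes were used where they were left out.

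Replicate numbers recur in all groups, and the labels do not say that they mark a shared culture. Deviations of same-numbered arrays correlated with r = 0.31 between wild-type and mtr10 fed polysome RNA, 0.48 and 0.64 between polysome and total RNA of wild-type and mtr10 when fed, 0.62, 0.51 and 0.41 between those of wild-type, msn5 and mtr10 when starved, and -0.66 in fed msn5. Of these 6 polysome and total pairs only that of fed msn5 was negative. The pairs of wild-type and mtr10 when fed, which enter polysome minus total, were positive. Whether same-numbered fractions share a culture was not tested, and the main fit takes them as unpaired. With the number as a replicate block in a fit of the compared groups, 2715 were called against wild-type and 0 in polysome minus total. With a block within each strain, added after seeing the data, polysome minus total gave 1082 calls (581 higher, 501 lower). For mtr10 and msn5 the correlation was -0.37, and a block with crossed numbers called 2981 genes beside 2047 with the numbers as labelled.

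Among named genes, 1004 of the recomputed values kept direction and side of the threshold and 8 did not. SME1 (0.29) passed with array weights, with 12 polysome arrays and with the block, GCN4 (0.30) and CPA1 (0.31) passed with centring outside chromosome IV, MSN5 (0.80) missed with MAS5 signals, where GCN4 was -0.04, and MET17 (-0.29) missed without wild-type array 2. Depth is not defined for arrays; 45 genes were not Present on all 4 arrays, and their low levels are bounds.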
